A study of Mus musculus with 15 samples.

Results

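Expression of the amino-acid stress response and of the tRNA-charging enzymes was examined in mouse Abelson pre-B cells, a cultured model of the pre-B stage in which the v-Abl oncogene drives growth. The set held 37 genes, 17 of them genes of the ATF4 stress pathway and 20 of them genes for cytosolic aminoacyl-tRNA synthetases. The genes were listed by symbol from general knowledge of the pathway, with earlier results of these data known. All 37 were among the 11551 genes found in any of the 4 deposited tables. Each of those 11551 genes, members included, had already passed the authors' own threshold in at least 1 of their 4 comparisons, so every count below is taken within that selection.

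RNA was sequenced from 15 libraries in 5 groups of 3. The groups Rag_SPIC_noDOX, Rag_SPIC_DOX and Rag_SPIC_DOX_shBCLAF1 were Rag -/- Abelson cells, which cannot make RAG DNA breaks, carrying a tetracycline-inducible SPIC. The first of them had no doxycycline, the second had doxycycline, and the third had doxycycline together with a hairpin label, shBCLAF1. The groups Art and Art_shBCLAF1 were Art -/- Abelson cells, which lack the Artemis nuclease, without and with the shBCLAF1 label. All 15 cultures, controls included, had been in imatinib, an inhibitor of the v-Abl kinase, for 48 h and were at passages 10 to 15. Neither an uninduced culture with the hairpin nor a control hairpin is named, and doxycycline itself differed between Rag_SPIC_DOX and Rag_SPIC_noDOX. The Rag -/- and Art -/- cells are different lines, so line and genotype cannot be told apart. Nothing in the labels says that the 3 libraries of a group came from separate cultures, so the p-values measure the spread between these libraries only.

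Effective library sizes lay between 17.2 and 27.1 M reads, except for 5.81 M in Art replicate 3. Levels are log2 CPM, the log2 of reads per M reads of the library, and a log2 fold change is a difference of group means on that scale, given with its standard error (SE). A gene is said to have risen, fallen or passed where limma's p-value, adjusted over all 11551 genes, was below 0.05. Those genes had been selected by the authors' results on these same libraries. Genes that passed in none of their comparisons are missing from the adjustment. The adjusted p-values may therefore be lower than over all genes sequenced, and they hold no stated rate of false calls. Art replicate 3 and Rag_SPIC_DOX replicate 2 stood apart from the other libraries of their groups, and results that rest on them are given with and without them. Spic rose in Rag_SPIC_DOX against Rag_SPIC_noDOX by a log2 fold change of 3.38 (SE 0.35, limma adjusted p = 0.00607). Its level was also higher with the shBCLAF1 label in both lines. It was at 3.72, 4.59 and 4.31 log2 CPM in Rag_SPIC_DOX and at 7.50, 7.43 and 7.44 in Rag_SPIC_DOX_shBCLAF1. In Art it was at 0.85, 0.32 and 0.16, and in Art_shBCLAF1 at 4.47, 4.34 and 4.80. The part of Spic in the label comparisons was not tested. Bclaf1 mRNA, the target of the hairpin by its name, was not lower in the labelled libraries: it was at 7.99, 8.05 and 8.10 log2 CPM in Rag_SPIC_DOX_shBCLAF1 against 7.76, 7.69 and 7.73 in Rag_SPIC_DOX. In the Art line it was at 8.29, 8.35 and 8.32 in the libraries labelled Art_shBCLAF1 against 7.81, 7.75 and 6.41 in Art. The label shBCLAF1 is therefore used below as a name of libraries and not as a statement that Bclaf1 mRNA was reduced. All 10 pre-B markers on the list were measured, with a summed level between 4356 and 12202 CPM over the 15 libraries, lowest in Art_shBCLAF1 and highest in Art.

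Cells sense a shortage of amino acids, misfolded protein or other stress through kinases that phosphorylate the initiation factor eIF2. Translation then falls in general while the mRNA of the transcription factor ATF4 is translated more. ATF4, paired with C/EBP-family proteins, binds C/EBP-ATF response elements and switches on genes for amino-acid synthesis, amino-acid transport and tRNA charging. It also switches on CHAC1, and feedback regulators such as TRIB3 and the eIF2 phosphatase subunit GADD34. The cytosolic tRNA synthetases, which attach each amino acid to its tRNA, are needed for all protein synthesis, and many of them are known ATF4 targets.

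The element searched for in the promoters was TGATGNAA, in which N is any base, on either strand; it is shown because it is the core letters of the C/EBP-ATF element. RefSeq promoter windows of build GRCm38.p6, each with 250 bases before and 50 bases after the annotated start, were matched to 28 of the 37 genes. The genes Cars, Eif4ebp1, Hars, Lars, Nars, Ppp1r15b, Rars, Vars and Wars had none. The motif was present in 9 of the 28 genes (32.1%), against 3.97% of all 32851 windows and 2.84% of the 9238 measured genes that had a window. By group, it was present in 4 of 15 stress genes and in 5 of 13 synthetase genes. The 250 bases before the start are printed 5′ to 3′ on the gene's strand for the 4 fully described genes with a match there, with the match in capitals.
Asns, which makes asparagine, chr6:7693210-7693459, minus strand: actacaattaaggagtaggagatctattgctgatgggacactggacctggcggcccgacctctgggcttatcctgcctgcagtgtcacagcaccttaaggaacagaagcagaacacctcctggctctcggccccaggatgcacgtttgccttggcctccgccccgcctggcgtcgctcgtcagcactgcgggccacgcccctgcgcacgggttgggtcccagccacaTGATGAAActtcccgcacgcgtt
Nupr1, a stress-induced nuclear protein, chr7:126625471-126625720, minus strand: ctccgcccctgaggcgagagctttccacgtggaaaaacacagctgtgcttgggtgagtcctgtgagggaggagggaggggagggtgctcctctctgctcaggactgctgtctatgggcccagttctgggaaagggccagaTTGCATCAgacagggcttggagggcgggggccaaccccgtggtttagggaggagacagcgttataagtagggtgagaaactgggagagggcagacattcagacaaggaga
Chac1, which degrades glutathione, chr2:119350992-119351241, plus strand: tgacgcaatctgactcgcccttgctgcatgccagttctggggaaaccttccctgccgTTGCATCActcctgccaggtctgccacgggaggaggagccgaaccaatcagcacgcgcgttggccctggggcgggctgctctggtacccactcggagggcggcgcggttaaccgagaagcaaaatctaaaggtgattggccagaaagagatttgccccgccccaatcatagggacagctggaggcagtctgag
Gars, the glycyl-tRNA synthetase, chr6:55037751-55038000, plus strand: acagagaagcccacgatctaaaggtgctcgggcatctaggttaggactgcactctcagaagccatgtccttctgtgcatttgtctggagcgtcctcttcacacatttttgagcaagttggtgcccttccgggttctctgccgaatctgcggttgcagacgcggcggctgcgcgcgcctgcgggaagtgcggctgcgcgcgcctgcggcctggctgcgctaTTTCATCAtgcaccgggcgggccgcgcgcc

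In Asns the match read TGATGAAA on the gene's strand and began at position -23, counted from the start base as 0. In Gars the match lay on the opposite strand, read TTTCATCA on the gene's strand and began at position -30. Nupr1 and Chac1 both read TTGCATCA, beginning at positions -110 and -193. Tars had a match beginning at position -15, and Aars had one at -112 and another at 9. In Yars, Iars and Trib3 the match lay after the start, beginning at positions 3, 7 and 14. A match is a description of these letters; no binding was measured here.

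**Figure D1:**
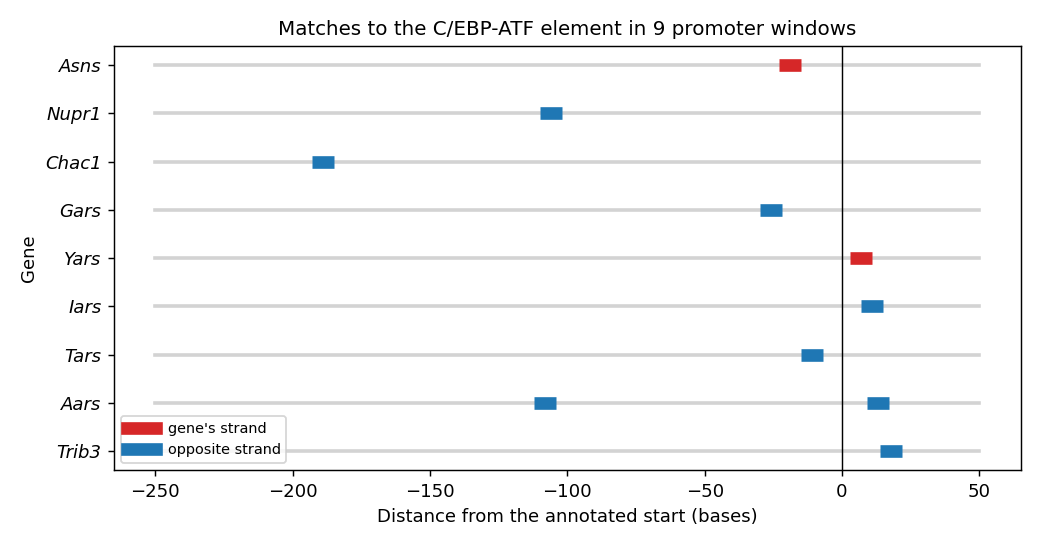
Positions of matches to the C/EBP-ATF element in the promoter windows of the 9 genes that held one. The x axis is the distance from the annotated start in bases, grey lines are the windows from 250 bases before to 50 bases after it, and genes are ordered by log2 fold change in Art_shBCLAF1 against Art. In 6 of the 9 genes a match lies before the start, and in Asns, Gars and Tars it begins within 30 bases of it.

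Across the 5 groups, Art_shBCLAF1 had the highest mean level for 27 of the 37 genes and Art had the lowest for 18. All 3 libraries labelled Art_shBCLAF1 lay above each of the other 12 libraries for 25 genes, 9 of them stress genes and 16 of them synthetases. They lay below each of the other 12 for 2 genes, the eIF2 kinases Eif2ak3 and Eif2ak4. These counts were made for the 37 genes only. Against Art alone, Art_shBCLAF1 lay wholly above for 33.9% of all genes and wholly below for 31.7%. The shares of all genes against the other 12 libraries can therefore be no higher than these. Relative to the mean of Rag_SPIC_noDOX, the median log2 level of the 20 synthetases was 1.50, 1.28 and 1.43 in the 3 Art_shBCLAF1 libraries and 0.87, 0.89 and 0.86 in the 3 Rag_SPIC_DOX_shBCLAF1 libraries. It was -0.11, -0.11 and 0.42 in the 3 Art libraries. In these bulk libraries, fewer cells that express a gene and less RNA of it per cell cannot be told apart.

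**Figure D2:**
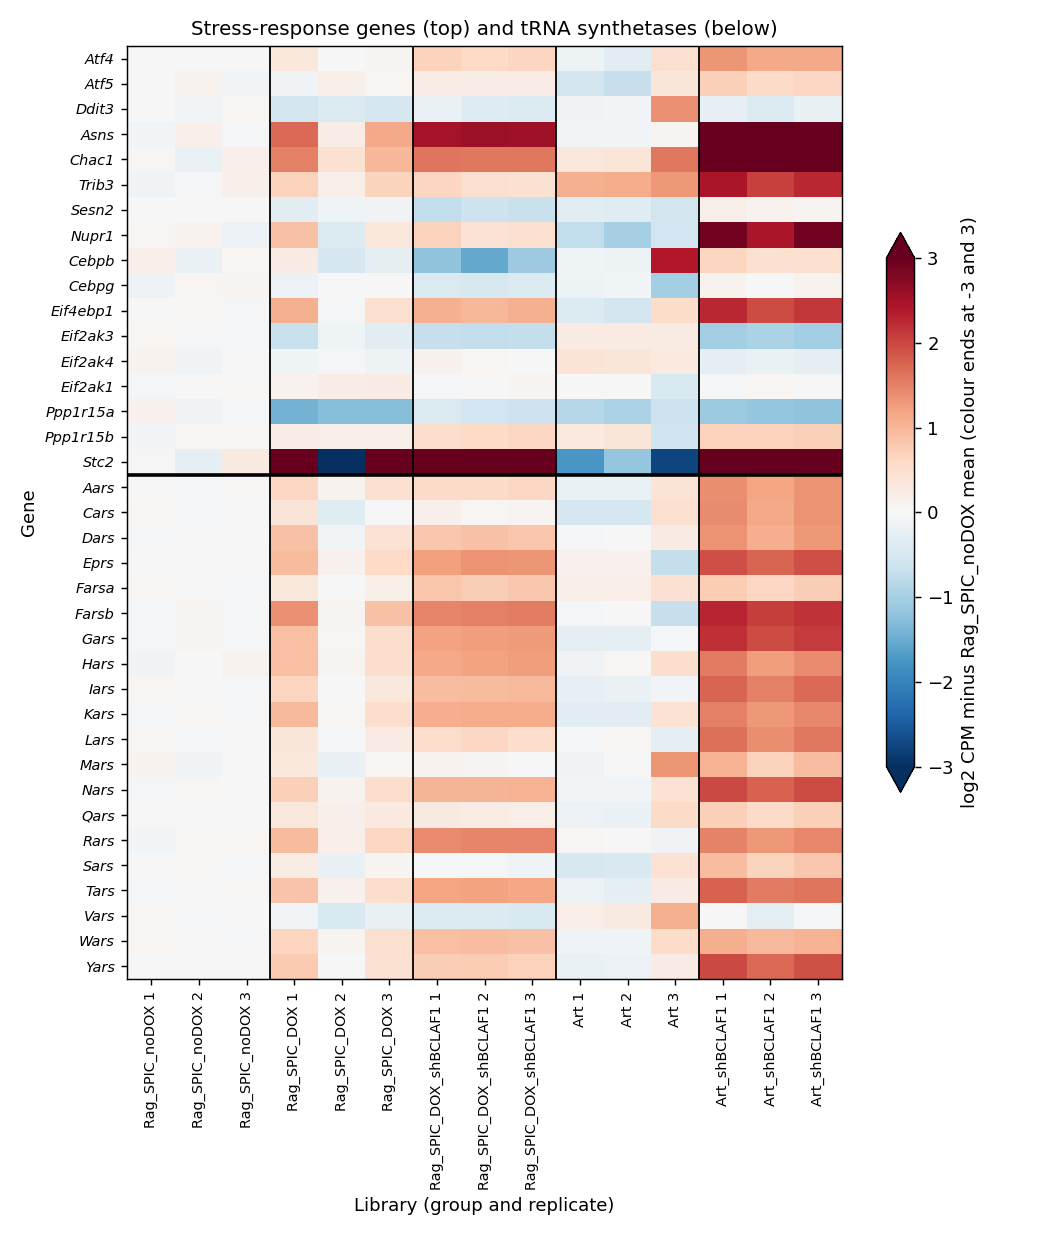
Levels of the 37 genes in each of the 15 libraries, as log2 CPM minus the mean of the 3 Rag_SPIC_noDOX libraries; rows are genes (17 stress genes above the line, 20 synthetases below) and columns are libraries. The Art_shBCLAF1 columns are highest for most rows, Rag_SPIC_DOX replicate 2 lies near Rag_SPIC_noDOX where replicates 1 and 3 do not, and Art replicate 3 differs from Art replicates 1 and 2.

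The first comparison asked what went with the shBCLAF1 label in the Art line. Most of the pathway was higher: 26 of the 37 genes rose and 2 fell in Art_shBCLAF1 against Art (limma), where 25% of all genes tested rose, 24.1% fell and 49% did either. The median log2 fold change was 1.20 over the 37 genes and 0.05 over all genes. Of the 17 stress genes 9 rose and 2 fell, and of the 20 synthetases 17 rose and 0 fell. The groups did not overlap, with Art_shBCLAF1 higher, for 29 genes (33.9% of all genes) and with it lower for 5 genes (31.7% of all genes, 65.6% in either direction).

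Among the transcription factors, Atf4 itself rose 2.29-fold (log2 fold change 1.20, SE 0.22, limma adjusted p = 0.0057). Its level was 9.21, 9.01 and 9.02 log2 CPM in Art_shBCLAF1 and 7.72, 7.57 and 8.37 in Art. The 2 groups did not overlap, although Art replicate 3 was well above the other Art libraries. Atf5, a related factor that is also induced under eIF2 phosphorylation, rose 1.91-fold (limma adjusted p = 0.0352). Nupr1, a small nuclear protein induced by ATF4, was at 4.81, 4.35 and 4.81 log2 CPM in Art_shBCLAF1 and at 1.18, 0.91 and 1.32 in Art. It was the transcription factor group's strongest riser, at 11.5-fold (log2 fold change 3.52, SE 0.20, limma adjusted p = 0.000127), although Art replicate 3 held only 14 of its reads.

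The other factors of the group did not pass with all libraries. Ddit3, which encodes the pro-apoptotic factor CHOP, was at 5.24, 5.07 and 5.26 log2 CPM in Art_shBCLAF1 and at 5.37, 5.41 and 6.86 in Art. Only Art replicate 3 stood well above the rest, and the log2 fold change was -0.69 (SE 0.41, limma adjusted p = 0.204); without that library it was -0.20 and passed (limma adjusted p = 0.0398). Cebpb, a C/EBP-family partner of ATF4, was at 3.80, 3.64 and 3.65 log2 CPM against 3.04, 3.02 and 5.56, again with Art replicate 3 the highest. Its log2 fold change was -0.17 (SE 0.68, limma adjusted p = 0.853) with all libraries and 0.67 without Art replicate 3 (limma adjusted p = 0.000208), so 1 library decided its direction. Cebpg, another C/EBP partner of ATF4, was at 6.55, 6.45 and 6.57 log2 CPM against 6.31, 6.38 and 5.43 and did not pass (log2 fold change 0.48, SE 0.26, limma adjusted p = 0.175), but passed at 0.18 without Art replicate 3 (limma adjusted p = 0.0246).

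Of the 3 eIF2 kinases in the set, 2 fell. Eif2ak3 encodes PERK, the eIF2 kinase of the endoplasmic reticulum. It was at 6.58, 6.66 and 6.61 log2 CPM in Art_shBCLAF1 and at 7.85, 7.86 and 7.87 in Art, a 2.37-fold fall (log2 fold change -1.25, SE 0.10, limma adjusted p = 0.000281). Eif2ak4 encodes GCN2, the kinase that senses uncharged tRNA. It was at 6.14, 6.25 and 6.17 log2 CPM against 6.85, 6.80 and 6.74, a 1.53-fold fall (log2 fold change -0.61, SE 0.10, limma adjusted p = 0.00411). In both kinases all 3 labelled libraries were below all 3 Art libraries, and the libraries within a group lay close together. Eif2ak1, the heme-regulated kinase, did not pass (log2 fold change 0.16, limma adjusted p = 0.432), and neither did the phosphatase subunits Ppp1r15a (-0.35, limma adjusted p = 0.0652) and Ppp1r15b (0.68, limma adjusted p = 0.0735). Without Art replicate 3 Ppp1r15a passed at -0.25 (limma adjusted p = 0.00516) and Ppp1r15b at 0.37 (limma adjusted p = 0.00012), and Eif2ak1 did not (0.01, limma adjusted p = 0.868).

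All 6 effector genes rose. Asns, the asparagine synthetase, was at 8.73, 8.40 and 8.56 log2 CPM in Art_shBCLAF1 and at 4.98, 4.99 and 5.14 in Art. This was an 11.5-fold difference with a small spread in both groups (log2 fold change 3.53, SE 0.13, limma adjusted p = 5.27e-05). Chac1, which breaks down glutathione, was at 5.39, 4.97 and 5.38 log2 CPM against 1.34, 1.37 and 2.57, an 11.2-fold rise (log2 fold change 3.49, SE 0.36, limma adjusted p = 0.000665). Its Art level rested on 65, 44 and 34 reads. Eif4ebp1 encodes 4E-BP1, a repressor of cap-dependent translation. It was at 7.90, 7.59 and 7.76 log2 CPM against 5.22, 5.08 and 6.17 (log2 fold change 2.26, SE 0.30, limma adjusted p = 0.00156).

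Trib3, a pseudokinase that dampens ATF4 activity, was at 6.09, 5.70 and 5.89 log2 CPM in Art_shBCLAF1 and at 4.71, 4.75 and 4.92 in Art (log2 fold change 1.10, SE 0.15, limma adjusted p = 0.00166). Sesn2, a leucine-binding inhibitor of mTORC1, was at 6.62, 6.55 and 6.52 log2 CPM against 6.12, 6.08 and 5.91. Its rise was the smallest of the 6 effectors (log2 fold change 0.53, SE 0.11, limma adjusted p = 0.00956). Stc2, a secreted glycoprotein induced by stress, had 222, 125 and 148 reads in Art_shBCLAF1 and 4, 4 and 0 reads in Art. It passed with a log2 fold change of 5.68 (SE 0.44, limma adjusted p = 0.000269), but at so few reads in Art the size of that fold depends on the 0.5 reads added before the log.

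Of the 20 synthetases, 17 rose. Farsb, the beta subunit of phenylalanyl-tRNA synthetase, was at 6.81, 6.60 and 6.70 log2 CPM in Art_shBCLAF1 and at 4.50, 4.51 and 3.83 in Art, a 5.36-fold rise (log2 fold change 2.42, SE 0.21, limma adjusted p = 0.000385). Gars, which charges the glycine tRNA, was at 9.08, 8.85 and 8.99 against 6.62, 6.60 and 6.85 log2 CPM, a 4.87-fold rise (log2 fold change 2.28, SE 0.13, limma adjusted p = 0.000115). Eprs, the fused glutamyl- and prolyl-tRNA synthetase, was at 9.03, 8.86 and 9.03 against 7.23, 7.23 and 6.39 log2 CPM (log2 fold change 2.02, SE 0.25, limma adjusted p = 0.00118). In all 3 genes the lowest labelled library was above the highest Art library. Yars, the tyrosyl-tRNA synthetase, was at 7.90, 7.61 and 7.81 against 5.71, 5.74 and 6.16 log2 CPM (log2 fold change 1.90, SE 0.16, limma adjusted p = 0.000368).

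The remaining synthetases that rose had log2 fold changes between 0.43, in Farsa, and 1.83, in Iars. Farsa encodes the alpha subunit of phenylalanyl-tRNA synthetase, so the pair of subunits of 1 enzyme differed in size of change, 0.43 for alpha against 2.42 for beta. That difference within the enzyme was not tested. The 3 synthetases that did not pass were Mars (log2 fold change 0.48, limma adjusted p = 0.346), Qars (0.60, limma adjusted p = 0.0669) and Vars (-0.63, limma adjusted p = 0.0794), which charge the tRNAs of methionine, glutamine and valine. Without Art replicate 3 all 3 passed, Mars at 0.94 (limma adjusted p = 3.28e-06), Qars at 0.86 (limma adjusted p = 2.77e-07) and Vars at -0.35 (limma adjusted p = 0.00249). Vars was the only synthetase with a negative value with all libraries, at 9.73, 9.48 and 9.68 log2 CPM against 9.94, 10.03 and 10.81.

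By structural class, 6 of 9 class I and 10 of 10 class II synthetases rose; Eprs, which holds a catalytic domain of each class, was left out of that split. By assembly, 6 of the 8 members of the multisynthetase complex rose (median log2 fold change 1.46), and 11 of the 12 outside it did (median 1.39). All 9 genes with a promoter match to the C/EBP-ATF element rose, with a median log2 fold change of 1.90. Of the 19 genes with a window but no match, 10 rose and 2 fell, with a median of 0.53. The 9 genes without a window are in neither group. How many of the 262 measured genes with a match rose was not counted, and the difference between the groups was not tested.

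Leaving out Art replicate 3 raised the counts to 31 higher and 5 lower genes, against 40.6% and 39.5% of all genes. Of the 28 genes that passed, 24 did so in each of the alternatives tried. Atf5, Farsa, Sars and Sesn2 were each lost in some, with a highest limma adjusted p of 0.111, 0.286, 0.09 and 0.055. Atf5, Farsa and Sars were lost without any 1 replicate other than Art replicate 3, and Sesn2 without Art_shBCLAF1 replicate 1. Centring each library on its median moved the median of all genes from 0.05 to -0.18, and 22 members were then higher and 4 lower; the share of higher genes among all genes called went from 50.9% to 37.5%. Cell type markers moved as well. Of the 10 pre-B markers 7 fell and 0 rose, with a summed level of 9778 to 12202 CPM in Art and 4356 to 4606 CPM in Art_shBCLAF1. Of the 5 measured myeloid markers, of 10 listed, 2 fell, and the sum went from 672 to 905 CPM in Art to 26.3 to 42.1 CPM in Art_shBCLAF1. That sum was mostly Itgam, an integrin subunit, at a mean of 9.65 log2 CPM in Art and 4.65 in Art_shBCLAF1; Csf1r, Cd14 and Tyrobp did not pass, and Mpo, Elane, Ly6c2, S100a8 and S100a9 were not among the genes analysed. Of the 3 measured T and NK markers, of 8 listed, 2 fell, with sums of 124 to 154 CPM and 26.0 to 28.4 CPM. The part of these markers in the result was not tested.

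**Figure D3:**
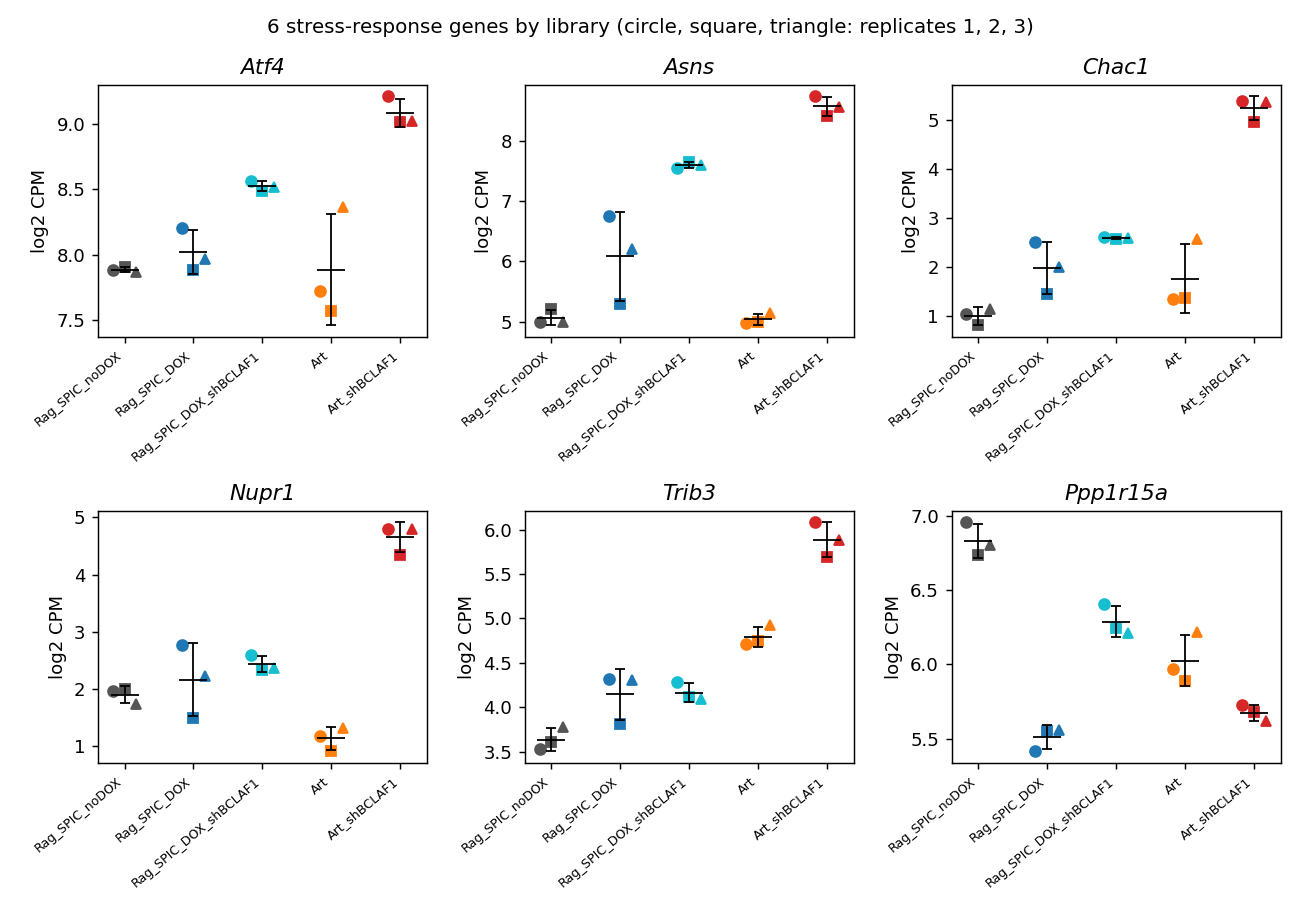
Levels of 6 stress genes by library, in log2 CPM on a separate axis for each gene; circles, squares and triangles are replicates 1, 2 and 3, and bars are the group mean and SD (n = 3). Asns, Chac1 and Nupr1 are far above every other library in Art_shBCLAF1, and Ppp1r15a is highest in Rag_SPIC_noDOX and lowest in Rag_SPIC_DOX.

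The second comparison asked what went with the same label in the Rag line with doxycycline. Here 14 of the 37 genes rose and 3 fell in Rag_SPIC_DOX_shBCLAF1 against Rag_SPIC_DOX, where 28.5% of all genes rose, 25.1% fell and 53.6% did either (limma). The median log2 fold change was 0.38 over the 37 genes and 0.05 over all genes. The synthetases took part with 10 of 20 higher and 0 lower, and the stress genes with 4 of 17 higher and 3 lower. The groups did not overlap for 20 genes with Rag_SPIC_DOX_shBCLAF1 higher (35.5% of all genes) and for 5 with it lower (30.6% of all genes, 66.1% in either direction).

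Of the members that rose, Asns had the largest change. It was at 7.55, 7.64 and 7.60 log2 CPM in Rag_SPIC_DOX_shBCLAF1 and at 6.75, 5.29 and 6.21 in Rag_SPIC_DOX, a 2.85-fold difference (log2 fold change 1.51, SE 0.34, limma adjusted p = 0.0106). Atf4 rose by a smaller amount, from 8.21, 7.88 and 7.97 to 8.56, 8.49 and 8.52 log2 CPM (log2 fold change 0.50, SE 0.09, limma adjusted p = 0.00531). The labelled libraries lay close together in both genes, and the unlabelled ones were spread.

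Both subunits that steer the eIF2 phosphatase rose. Ppp1r15a encodes GADD34, the stress-induced subunit, and was at 6.40, 6.25 and 6.21 log2 CPM in Rag_SPIC_DOX_shBCLAF1 and at 5.42, 5.55 and 5.56 in Rag_SPIC_DOX (log2 fold change 0.78, SE 0.08, limma adjusted p = 0.000769). Ppp1r15b encodes CReP, the constitutive subunit, and rose by 0.38 on the log2 scale (limma adjusted p = 0.00214). None of the 3 eIF2 kinases in the set passed, with log2 fold changes of -0.34 for Eif2ak3 (limma adjusted p = 0.0655), 0.16 for Eif2ak4 (limma adjusted p = 0.0715) and -0.18 for Eif2ak1 (limma adjusted p = 0.0546). Without Rag_SPIC_DOX replicate 2, Eif2ak4 passed at 0.19 (limma adjusted p = 0.0371).

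The 3 genes that fell were Cebpb, Sesn2 and Cebpg. Cebpb was at 1.96, 1.63 and 2.07 log2 CPM in Rag_SPIC_DOX_shBCLAF1 and at 3.41, 2.67 and 2.89 in Rag_SPIC_DOX (log2 fold change -1.10, SE 0.23, limma adjusted p = 0.00792). It rested on 88, 80 and 113 reads in the labelled libraries. Sesn2 was at 5.70, 5.83 and 5.79 log2 CPM against 6.12, 6.32 and 6.36 (log2 fold change -0.49, SE 0.08, limma adjusted p = 0.00391). Cebpg was at 6.02, 5.98 and 6.05 log2 CPM against 6.28, 6.47 and 6.44 (log2 fold change -0.38, SE 0.07, limma adjusted p = 0.00582). In each of the 3 genes the 2 groups did not overlap.

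Among the synthetases, Rars, which charges the arginine tRNA, had the largest rise. It was at 7.15, 7.20 and 7.19 log2 CPM against 6.67, 5.88 and 6.36 (log2 fold change 0.88, SE 0.19, limma adjusted p = 0.00898). Gars was at 8.10, 8.16 and 8.16 log2 CPM against 7.80, 6.94 and 7.43 (log2 fold change 0.75, SE 0.20, limma adjusted p = 0.0202). Eprs was at 8.32, 8.45 and 8.42 against 8.04, 7.24 and 7.69 (log2 fold change 0.74, SE 0.19, limma adjusted p = 0.0183). Hars, the histidyl-tRNA synthetase, was at 6.39, 6.45 and 6.49 against 6.14, 5.33 and 5.76 (log2 fold change 0.70, SE 0.19, limma adjusted p = 0.0215). In these 4 genes Rag_SPIC_DOX replicate 2 was the lowest library of its group, and the labelled group lay above all of it. The other synthetases that rose were Farsa, Iars, Lars, Nars, Tars and Wars, with log2 fold changes from 0.37 in Lars to 0.68 in Tars.

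Several of the strongest genes of the Art line did not pass here. Chac1 was at 2.61, 2.57 and 2.58 log2 CPM in Rag_SPIC_DOX_shBCLAF1 and at 2.51, 1.45 and 1.99 in Rag_SPIC_DOX (log2 fold change 0.61, limma adjusted p = 0.0918). Nupr1 was at 2.59, 2.34 and 2.37 against 2.77, 1.50 and 2.22 (log2 fold change 0.27, limma adjusted p = 0.489). Trib3 was at 4.28, 4.11 and 4.09 against 4.32, 3.81 and 4.30 (log2 fold change 0.02, limma adjusted p = 0.937). The groups overlapped for Nupr1 and Trib3, and for Chac1 the labelled libraries lay just above the highest Rag_SPIC_DOX library. Stc2 had 364, 409 and 424 reads against 315, 1 and 110, and did not pass (log2 fold change 3.24, SE 1.84, limma adjusted p = 0.175). Without Rag_SPIC_DOX replicate 2 its value was 0.92 (limma adjusted p = 0.0627), and Nupr1 was at -0.06 (limma adjusted p = 0.8). Of the genes with a promoter match 4 of 9 rose, and of those with a window but no match 4 of 19 did, against 28.5% of all genes. That difference was not tested.

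These counts moved with single libraries. Without Rag_SPIC_DOX_shBCLAF1 replicate 1, 2 or 3, 7 genes rose each time (18.9% of the 37), against 18.2%, 16.9% and 17.6% of all genes. Without Rag_SPIC_DOX replicate 3, 8 rose (21.6%), against 18.8% of all genes. In these 4 settings the share of the 37 genes that rose was thus near that of all genes. Without Rag_SPIC_DOX replicate 1 it was 21 genes (56.8%) against 36.1%, and without replicate 2 it was 17 genes (45.9%) against 30.6%, with 5 lower against 25.6%. Asns, Atf4, Farsa, Iars, Ppp1r15a, Rars and Sesn2 passed in each alternative tried. With libraries centred on their medians 14 genes rose and 5 fell, and the median of all genes moved from 0.05 to -0.05. All 5 measured myeloid markers fell, from a summed level of 178 to 263 CPM in Rag_SPIC_DOX to 36.1 to 39.2 CPM in Rag_SPIC_DOX_shBCLAF1. Of the pre-B markers 3 rose and 3 fell, with sums of 5459 to 7859 CPM and 5693 to 5878 CPM. The part of these markers in the result was not tested.

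**Figure D4:**
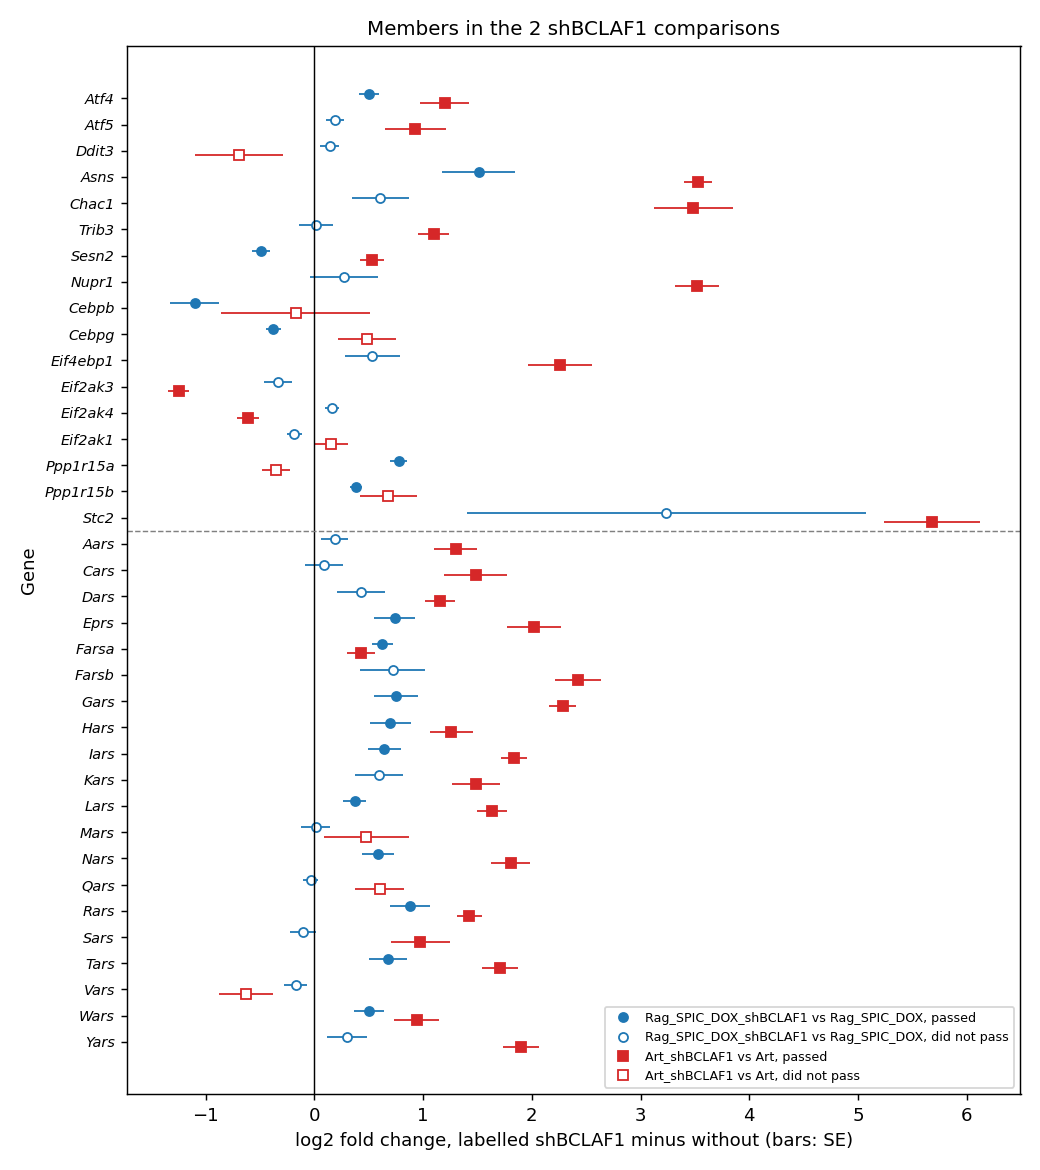
Log2 fold changes of the 37 genes with the shBCLAF1 label in the Rag line (circles) and in the Art line (squares); bars are standard errors, filled symbols passed at a limma adjusted p below 0.05, and the dashed line parts stress genes from synthetases. The Art values lie to the right of the Rag values for 31 genes, and Sesn2 passed on opposite sides of 0.

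The comparisons with the label in the 2 lines share no library. Of the 26 genes that rose in the Art line, 12 also rose in the Rag line: Atf4, Asns and 10 synthetases. Of all genes, 25% rose in the Art line and 28.5% in the Rag line. The share of all genes that rose in both was not counted. A further 13 did not pass in the Rag line, and Sesn2 fell there. The genes that fell in the Art line, Eif2ak3 and Eif2ak4, did not pass in the Rag line.

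Whether the label effect differed between the lines was tested with an interaction term over the 12 libraries. The Rag pair also had the inducible SPIC and doxycycline, and the Art pair is labelled with neither. Line, genotype, SPIC and doxycycline therefore cannot be told apart in this term. It was larger in the Art line, or less negative, for 18 genes and smaller for 3 (limma), against 14.3% and 17% of all genes (31.3% in either direction). The median difference was 0.93 on the log2 scale over the 37 genes and 0.03 over all genes. Nupr1 differed most, by 3.25 (SE 0.40, limma adjusted p = 0.000231), followed by Chac1 at 2.88 (SE 0.48, limma adjusted p = 0.00137) and Asns at 2.02 (SE 0.39, limma adjusted p = 0.00335). Of the effectors only Stc2 did not pass with all libraries (2.44, SE 2.08, limma adjusted p = 0.399); without Rag_SPIC_DOX replicate 2, which held 1 of its reads, it passed at 4.76 (limma adjusted p = 0.000526).

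Among the synthetases 11 of 20 differed between the lines, led by Farsb at 1.70 (SE 0.40, limma adjusted p = 0.00863), Yars at 1.61 (SE 0.26, limma adjusted p = 0.00124) and Gars at 1.53 (SE 0.25, limma adjusted p = 0.00139). The 3 genes with a smaller value in the Art line were Ppp1r15a (-1.13, SE 0.15, limma adjusted p = 0.000396), Eif2ak3 (-0.91, SE 0.17, limma adjusted p = 0.00236) and Eif2ak4 (-0.77, SE 0.12, limma adjusted p = 0.000801). Atf4 itself did not pass (0.69, SE 0.25, limma adjusted p = 0.0598), and it did without Art replicate 3 (0.93, limma adjusted p = 0.000286). Without that library 27 genes had a larger and 4 a smaller value, against 26.6% and 27.8% of all genes. Without Rag_SPIC_DOX replicate 2 the counts were 22 and 3, against 17.6% and 17.7% of all genes. With libraries centred on their medians the counts were 17 and 3, and the share of higher genes among all genes called went from 45.6% to 37.4%.

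The third comparison asked what went with doxycycline and the SPIC construct in Rag -/- cells. It shares the Rag_SPIC_DOX libraries with the comparison above, so the 2 sets of values are not independent. With all libraries 0 of the 37 genes rose and 2 fell (limma), against 3.16% and 8.67% of all genes (11.8% in either direction), and 20 members (54.1%) were at an unadjusted p below 0.05, against 34.2% of all genes. The median log2 fold change was 0.27 over the 37 genes, 0.41 over the synthetases and 0.00 over all genes. The groups did not overlap for 14 genes with Rag_SPIC_DOX higher (18% of all genes) and for 5 with it lower (22.7% of all genes, 40.7% in either direction). In this comparison the authors' own results list 7749 genes at an adjusted p below 0.05, where 1367 passed here. Most of the 37 genes are among them, mostly higher with doxycycline. Cebpb, Ddit3, Eif2ak3, Eif2ak4, Ppp1r15a, Sesn2 and Vars are lower there. The cause of this difference in calls was not tested.

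Ppp1r15a fell most. It was at 5.42, 5.55 and 5.56 log2 CPM in Rag_SPIC_DOX and at 6.96, 6.73 and 6.80 in Rag_SPIC_noDOX, a 2.50-fold fall that passed in each alternative tried (log2 fold change -1.32, SE 0.09, limma adjusted p = 0.00163). Ddit3 was at 4.95, 5.08 and 4.99 log2 CPM against 5.50, 5.40 and 5.55 (log2 fold change -0.48, SE 0.08, limma adjusted p = 0.0179). Both genes, which encode GADD34 and CHOP, lay lower in all 3 doxycycline libraries. Ddit3 was lost without Rag_SPIC_noDOX replicate 1 or 3 or Rag_SPIC_DOX replicate 3, with a highest limma adjusted p over all alternatives of 0.314.

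The synthetases were ordered by library within Rag_SPIC_DOX. In all 20 of them replicate 1 was above replicate 3 and replicate 3 above replicate 2, an order found in 33.5% of all genes and in 9 of the 17 stress genes. Relative to the mean of Rag_SPIC_noDOX, the median of the 20 synthetases was 0.67, 0.03 and 0.47 in replicates 1, 2 and 3. For Gars these libraries were at 7.80, 6.94 and 7.43 log2 CPM, against 6.83, 6.98 and 6.87 in Rag_SPIC_noDOX. For Asns they were at 6.75, 5.29 and 6.21 against 4.99, 5.20 and 4.99. Replicate 2 thus lay close to the uninduced cells for these genes, and replicates 1 and 3 lay above them.

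The median absolute log2 difference between replicates 1 and 2 was 0.54 over the 37 genes, 0.69 over the synthetases and 0.29 over all genes. The root-mean-square difference, which large single differences dominate, was 1.44 over the 37 genes but 0.70 without Stc2 (315 reads against 1), beside 0.83 over all genes. Spic did not follow that order, at 3.72, 4.59 and 4.31 log2 CPM in replicates 1, 2 and 3. Myc, a growth-promoting factor named here after its values were seen, did, at 8.06, 3.76 and 6.83 log2 CPM. It was at 5.77, 5.41 and 5.60 in Rag_SPIC_noDOX and at 9.13, 9.20 and 9.29 in Rag_SPIC_DOX_shBCLAF1. In the Art line it was at 3.87, 4.08 and 4.26 in Art and at 8.89, 8.68 and 8.79 in Art_shBCLAF1. The part of Myc in these results was not tested.

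Without Rag_SPIC_DOX replicate 2, 21 genes rose and 3 fell, against 20% and 19.6% of all genes, and 16 of the 20 synthetases were among those that rose. Asns then passed at a log2 fold change of 1.42 (limma adjusted p = 0.000142), Farsb at 1.13 (limma adjusted p = 0.000327), Rars at 0.78 (limma adjusted p = 0.000463) and Eprs at 0.77 (limma adjusted p = 0.000441). The values with all libraries were 1.02 for Asns (SE 0.33, limma adjusted p = 0.0793), 0.78 for Farsb (SE 0.29, limma adjusted p = 0.11), 0.57 for Rars (SE 0.18, limma adjusted p = 0.0802) and 0.56 for Eprs (SE 0.18, limma adjusted p = 0.0834). Stc2 had 10, 8 and 12 reads in Rag_SPIC_noDOX, and its log2 fold change was 1.53 with all libraries and 3.85 without replicate 2.

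**Figure D5:**
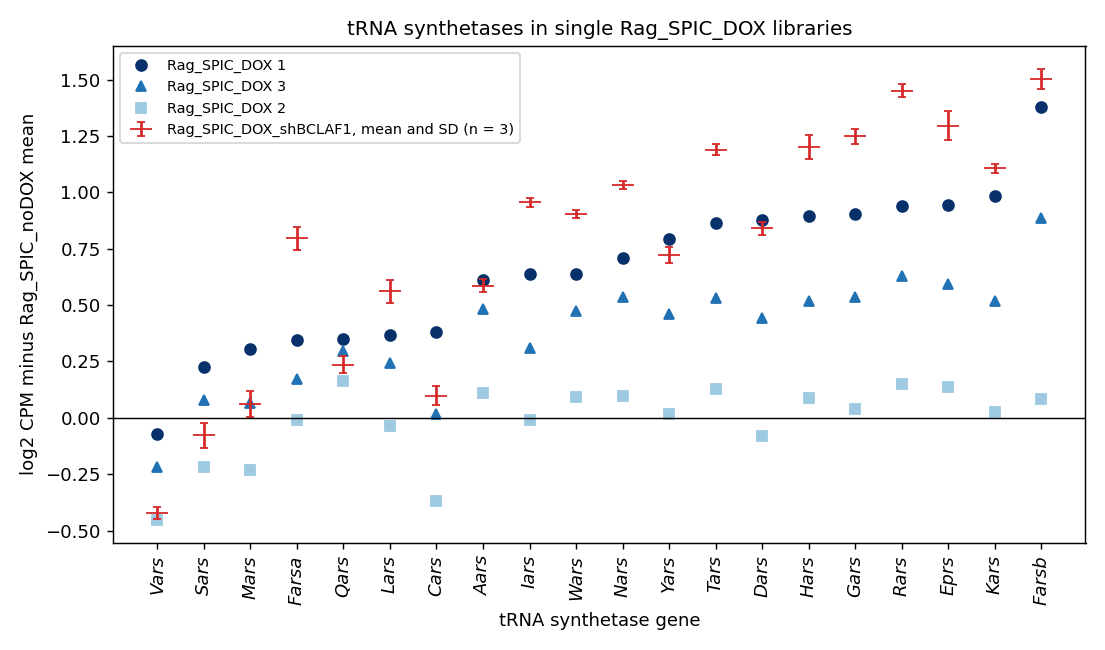
Levels of the 20 synthetases in the 3 Rag_SPIC_DOX libraries (blue symbols) and in Rag_SPIC_DOX_shBCLAF1 (red, mean and SD, n = 3), as log2 CPM minus the mean of Rag_SPIC_noDOX, with genes ordered by replicate 1. Replicate 1 is above replicate 3 and replicate 3 above replicate 2 for all 20 genes, and most red marks lie above all 3.

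The fourth comparison set the Art line, in which RAG breaks stay unrepaired, beside Rag_SPIC_noDOX. It shares Art with the first comparison and Rag_SPIC_noDOX with the third. With all libraries 1 gene rose and 1 fell (limma), against 2.58% and 2.56% of all genes (5.14% in either direction), and 7 members (18.9%) were at an unadjusted p below 0.05, against 21.7% of all genes. The median log2 fold change was -0.03 over the 37 genes and -0.03 over all genes. The groups did not overlap for 6 genes with Art higher (18.4% of all genes) and for 5 with it lower (19.4% of all genes, 37.9% in either direction). For this comparison the authors list 6392 genes at an adjusted p below 0.05, where 594 passed here.

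Trib3 was the gene that rose, at 4.71, 4.75 and 4.92 log2 CPM in Art and 3.52, 3.60 and 3.78 in Rag_SPIC_noDOX, a 2.23-fold difference (log2 fold change 1.16, SE 0.13, limma adjusted p = 0.0133). Ppp1r15a fell from 6.96, 6.73 and 6.80 to 5.97, 5.89 and 6.22 log2 CPM (log2 fold change -0.81, SE 0.13, limma adjusted p = 0.0278). The 2 groups did not overlap in either gene. Neither gene passed without any 1 of the Rag_SPIC_noDOX replicates, or without Art replicate 1 or 2, where at most 1 gene of all 11551 did. The highest limma adjusted p over all alternatives was 0.133 for Trib3 and 0.168 for Ppp1r15a.

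Art replicate 3 was the highest Art library for 27 of the 37 genes (73.0%), against 46.9% of all genes. Without it 6 genes rose and 16 fell, against 23.2% and 24.2% of all genes. Those lower then included Nupr1 (log2 fold change -0.86, limma adjusted p = 0.00123), Atf5 (-0.63, limma adjusted p = 4.92e-07), Cars (-0.52, limma adjusted p = 1.39e-06), Sars (-0.48, limma adjusted p = 1.07e-06) and Atf4 (-0.24, limma adjusted p = 0.00257). Trib3 (1.09, limma adjusted p = 5.23e-08) and Eif2ak4 (0.38, limma adjusted p = 8.47e-05) were among those higher. Art replicate 3 had 5.81 M reads, the fewest of the 15 libraries.

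The other genes of the pathway were read from lists drawn up from general knowledge, also with earlier results of these data known. Of 30 further ATF4 targets, mostly genes of amino-acid synthesis, one-carbon metabolism and transport, 25 were measured. In Art_shBCLAF1 against Art 21 rose and 1 fell, against 25% and 24.1% of all genes, with a median log2 fold change of 2.25. Without Art replicate 3 the counts were 24 and 1, against 40.6% and 39.5% of all genes. Cth, which makes cysteine, rose by 4.76 on the log2 scale (SE 0.17, limma adjusted p = 5.27e-05) and Pycr1, which makes proline, by 4.67 (SE 0.24, limma adjusted p = 8.82e-05). The glutamine transporter Slc1a5 fell by 0.43 on the log2 scale (limma adjusted p = 0.0241). In Rag_SPIC_DOX_shBCLAF1 against Rag_SPIC_DOX 15 rose and 1 fell, against 28.5% and 25.1% of all genes, with a median of 1.13. Cth rose by 3.67 (limma adjusted p = 0.00075) and the arginine transporter Slc7a3 by 2.30 (limma adjusted p = 0.0124), and Jdp2 fell by 0.77 (limma adjusted p = 0.0101).

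In Rag_SPIC_DOX against Rag_SPIC_noDOX 0 of the 25 rose and 2 fell, against 3.16% and 8.67% of all genes. Those that fell were the stress factor Atf3 by 1.15 on the log2 scale (limma adjusted p = 0.0281) and the mTORC1 inhibitor Ddit4 by 1.04 (limma adjusted p = 0.00331). Without Rag_SPIC_DOX replicate 2, 15 rose and 3 fell, against 20% and 19.6% of all genes. In Art against Rag_SPIC_noDOX 0 rose and 4 fell, against 2.58% and 2.56% of all genes. The largest falls were in Vldlr by 2.37 (limma adjusted p = 0.0103) and Atf3 by 1.23 (limma adjusted p = 0.0122). Without Art replicate 3 the counts of genes that rose and fell were 5 and 12, against 23.2% and 24.2% of all genes.

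The mitochondrial synthetases charge tRNAs inside the organelle. Of 17 measured, 5 rose and 0 fell in Art_shBCLAF1 against Art, against 25% and 24.1% of all genes. The median log2 fold change was 0.17 beside 1.46 for the cytosolic enzymes. The difference between the lists was not tested. Ears2, which charges the mitochondrial glutamate tRNA, rose by 1.55 on the log2 scale (limma adjusted p = 0.00265). Without Art replicate 3, 11 rose and 1 fell, against 40.6% and 39.5% of all genes. In Rag_SPIC_DOX_shBCLAF1 against Rag_SPIC_DOX 8 rose and 1 fell, against 28.5% and 25.1% of all genes. The median was 0.24 beside 0.54 for the cytosolic enzymes. Ears2 rose by 1.21 (limma adjusted p = 0.012), Yars2 rose by 1.14 (limma adjusted p = 0.00377) and Fars2 fell by 0.43 (limma adjusted p = 0.0352). Of the 3 scaffold proteins of the multisynthetase complex, Eef1e1 rose in both label comparisons, by 2.31 in the Art line (limma adjusted p = 0.00019) and by 1.70 in the Rag line (limma adjusted p = 0.0066).

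The list of eIF2 subunits and of regulators of eIF2B and GCN2 held 14 genes. Of the 12 measured, 7 rose and 1 fell in the Art line, against 25% and 24.1% of all genes. The rises were led by the eIF2 subunits Eif2s2 at 2.60 (limma adjusted p = 0.00327) and Eif2s1 at 2.01 (limma adjusted p = 0.00134). Art replicate 3 was the lowest Art library for both: Eif2s2 was at 5.28, 5.17 and 3.70 log2 CPM in Art, and Eif2s1 at 5.19, 5.15 and 4.30. Without it 9 genes of the list rose and 1 fell, against 40.6% and 39.5% of all genes. The GCN2 activator Gcn1l1 fell by 0.91 (limma adjusted p = 0.0107). In the Rag line 8 rose and 0 fell, against 28.5% and 25.1% of all genes. They were led by Eif2b3, a subunit of the exchange factor eIF2B, at 1.31 (limma adjusted p = 0.013) and the ribosome-recycling factor Abce1 at 1.05 (limma adjusted p = 0.00663).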

How the data were processed

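RNA was measured by paired-end sequencing. Tools named in the submitters' processing notes are limma, edgeR, featureCounts 1.4.5 and Subread, with mm9 as the build, and no settings are recorded there. The authors deposited 4 tables of log2 CPM values for all 15 libraries, with their own log2 fold changes and p-values. Each deposited table lists genes up to an adjusted p-value of 0.0499. The 4 tables hold between 6392 and 9784 genes, in each case more than passed here in the same comparison. The log2 values were the same in every table (largest difference 0), held 0.5 added reads, and returned to whole reads within 0.05 for 100% of values below 1000 reads. The tables were joined to 11551 genes after merging 152 duplicate rows. RefSeq promoters are of another build, GRCm38.p6, and were matched by gene identifier only.

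limma 3.58.1 in R 4.3.3 with a mean-variance trend was fitted to the 6 libraries of each comparison, or to 12 for the interaction, two-sided, with Benjamini-Hochberg adjustment over all 11551 genes and a threshold of 0.05. Fold changes are differences of mean log2 CPM and understate low genes. Genes described in full were, per comparison, the 6 highest and 6 lowest among members that passed; of each other list at most the 2 highest and 2 lowest were named, with Bclaf1 and Spic. Atf4 was also given in full, and Ppp1r15b, Mars, Qars, Vars and Myc were named after their values were seen. Members and lists were chosen with earlier results of these data known. Alternatives are given in the closing section.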

Additional observations from a re-analysis of the deposited data

Results flagged for a closer look

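For 21 of the 37 genes the effect of the shBCLAF1 label differed between the Art and Rag lines by the interaction term (limma adjusted p below 0.05), where 31.3% of all genes did. The value is the log2 fold change in the Art line minus that in the Rag line. Only the Rag pair had doxycycline and the inducible SPIC, so these cannot be told apart from line or genotype. Among the stress genes it was 3.25 for Nupr1, 2.88 for Chac1, 2.02 for Asns, 1.72 for Eif4ebp1, 1.08 for Trib3, 1.02 for Sesn2 and 0.86 for Cebpg. It was -1.13 for Ppp1r15a, -0.91 for Eif2ak3 and -0.77 for Eif2ak4. Among the synthetases it was 1.70 for Farsb, 1.61 for Yars, 1.53 for Gars, 1.40 for Cars, 1.29 for Eprs and 1.26 for Lars. It was 1.22 for Nars, 1.19 for Iars, 1.11 for Aars, 1.08 for Sars and 1.03 for Tars. Of the 21, 19 passed in each alternative tried. Cebpg was lost in 12 of 20 alternatives and Sars in 5 of 20, with a highest adjusted p of 0.0897 and 0.0588.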

How the results depend on the processing

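Counts below are members higher, members lower and all genes called. In Art against Rag_SPIC_noDOX they were 1, 1 and 594, and became 6, 17 and 6547 with array weights (libraries weighted by their estimated spread), 7, 16 and 5821 with voom on the recovered reads and array weights, an alternative chosen after seeing the data, and 2, 2 and 1957 with 1 fit over all 15 libraries. Leaving out 1 replicate gave 0 to 6, 0 to 16 and 0 to 5473, and median centring gave 0 lower. In Rag_SPIC_DOX against Rag_SPIC_noDOX they were 0, 2 and 1367, and became 26, 7 and 8589 with array weights and 24, 6 and 7160 with voom. The joint fit gave 3 higher, and adding 1 CPM gave 1. Leaving out 1 replicate gave 0 to 21, 1 to 3 and 12 to 4569. In Rag_SPIC_DOX_shBCLAF1 against Rag_SPIC_DOX they were 14, 3 and 6186, and became 26, 9 and 10078 with array weights, and 23 and 7 with voom; median centring gave 5 lower. Leaving out 1 replicate gave 7 to 21, 3 to 5 and 3945 to 7576. In Art_shBCLAF1 against Art they were 26, 2 and 5664; array weights gave 5 lower and 9839 in all, voom 4 and 9631, the joint fit 5 lower and median centring 4 lower. Leaving out 1 replicate gave 22 to 31, 2 to 5 and 3740 to 9252. The interaction gave 18, 3 and 3621, with 30 higher and 9159 in all with array weights, 30 and 8596 with voom, and 16 to 27, 3 to 4 and 2674 to 6286 when 1 replicate was left out. Median centring took the share of higher calls among all genes from 26.7% to 16.8% with doxycycline. In 10 of 2807 refits of single members, a member that had not passed took the opposite sign and passed; no member that had passed changed sign. In Art against Rag_SPIC_noDOX, Aars turned to -0.21 with array weights and -0.21 with voom, and Qars to -0.18 and -0.18; leaving out 1 replicate gave -0.20 to 0.11 and -0.18 to 0.20, the lowest without Art replicate 3. Trib3 turned to -0.16 with array weights in Rag_SPIC_DOX_shBCLAF1 against Rag_SPIC_DOX. In Art_shBCLAF1 against Art, Cebpb turned to 0.64 with array weights and 0.65 with voom, and lay between -0.60 and 0.67 when 1 replicate was left out. The cause was not tested. Deviations from the group mean, compared between libraries of the same replicate number, had correlations from -0.23 to 0.20. With 3 libraries in a group, and 1 standing apart in Art and in Rag_SPIC_DOX, these cannot show whether libraries were paired. The replicate block gave 0, 0 and 0 in Art against Rag_SPIC_noDOX, 1 lower and 150 in all in Rag_SPIC_DOX against Rag_SPIC_noDOX, and moved no other count by over 1.5 times; 1902 genes were at an unadjusted p below 0.05 in the first. Depth limits 5 members with under 100 reads in some library: Stc2, Farsb, Chac1, Nupr1 and Cebpb. Leaving out genes below a mean of 1 log2 CPM removed Stc2 from the fit.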

Other observations

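The XBP1 and ATF6 arms of the unfolded protein response, which act beside PERK in the endoplasmic reticulum, were read from 16 genes. In Art_shBCLAF1 against Art 7 rose and 2 fell (limma), against 25% and 24.1% of all genes, with a median log2 fold change of 0.30. Without Art replicate 3 the counts were 8 and 4, against 40.6% and 39.5% of all genes. The secreted factor Manf rose by 1.83 (limma adjusted p = 0.00122) and the chaperone partner Sdf2l1 by 1.54 (limma adjusted p = 0.034). Sdf2l1 was at 3.47, 3.65 and 5.24 log2 CPM in Art, with replicate 3 the highest. Herpud1, which serves degradation of misfolded protein, fell by 1.02 (limma adjusted p = 0.00259) and Ern1, which encodes the sensor IRE1, fell by 0.72 (limma adjusted p = 0.0378). In Rag_SPIC_DOX_shBCLAF1 against Rag_SPIC_DOX 6 rose and 2 fell, against 28.5% and 25.1% of all genes, with a median of 0.35. Hspa5, the chaperone BiP, rose by 1.15 (limma adjusted p = 0.00466) and Manf by 0.82 (limma adjusted p = 0.0162), while Ern1 fell by 0.53 (limma adjusted p = 0.00749) and Herpud1 by 0.50 (limma adjusted p = 0.0285). In Rag_SPIC_DOX against Rag_SPIC_noDOX Ern1 fell by 0.47 (limma adjusted p = 0.035). The label effect on Manf differed between the lines by 1.01 (limma adjusted p = 0.0381).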
